A study of Homo sapiens with 4 samples.

Results

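Small nucleolar RNAs encoded outside the imprinted chromosome domains were followed in the human colorectal carcinoma line HCT116 after exposure to 5-aza-2'-deoxycytidine, also called decitabine, which replaces cytosine in newly made DNA and traps the methyltransferases there. The members were all genes whose symbol starts with SNORA or SNORD and that have a probe set naming them alone, without SNORD64, SNORD107, SNORD108, SNORD109A, SNORD109B and the SNORD113 to SNORD116 families. This gave 138 of the 17958 genes tested, 71 of box C/D type (symbols starting with SNORD) and 67 of box H/ACA type (symbols starting with SNORA). The 5aza group held 2 samples from cells that received 1 µM drug 24 hours after seeding and again 48 hours later, with total RNA taken 72 hours after the first dose. The vehicle group held 2 samples of the same line, and the labels do not name the vehicle. Each sample was hybridized to 1 Affymetrix array, and the labels do not say whether the samples of a group came from separate cultures, so the p-values reflect nothing but sample-to-sample spread that could be technical.

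SnoRNAs are short RNAs of the nucleolus and of Cajal bodies that steer chemical modification of other RNAs, above all ribosomal RNA. Box C/D snoRNAs bind fibrillarin and place methyl groups on the ribose of the base-paired nucleotide, and box H/ACA snoRNAs bind dyskerin and turn uridine into pseudouridine. A few, among them U3, U8 and U13, serve the cleavage or acetylation of the rRNA precursor instead. Most human snoRNAs are cut from introns of a host gene after splicing, so that a host transcript and its snoRNA are made together but decay separately. Many hosts encode ribosomal proteins or translation factors, and others are noncoding genes whose spliced RNA is quickly degraded.

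The labelled cell type was checked on 8 epithelial markers. KRT8, KRT18, KRT19, EPCAM and CDH1 had log2 levels between 10.14 and 13.33 on all 4 arrays, whereas VIL1 and CDH17 lay between 3.64 and 4.79. LGALS4, a galectin of gut epithelium, had 6.81 and 6.98 in 5aza cells, against 5.24 and 5.02 in vehicle cells, and was called higher. KRT18 also rose (0.44) and EPCAM fell (difference -0.72), so these markers differed between the groups. Over all genes 12.4% were called higher and 15.6% lower. Of 9 markers of leukocytes, endothelium and fibroblasts, 4 (44.4%) were called higher in 5aza cells (CD3D, CD68, PECAM1 and COL1A1) and 0 lower. The linear levels of all 9 summed to 1533 and 1762 on the 5aza arrays, against 599 and 700.3 on the vehicle arrays, a sum over unlike probe sets in which CD68 had the highest level. CD68 had 10.04 and 10.40 in 5aza cells, against 8.54 and 8.85 in vehicle cells. The 5 markers not called were VWF (difference 0.33, limma adjusted p = 0.0788), DCN (0.25), COL1A2 (0.11), PTPRC (0.10) and COL3A1 (-0.03). The part of these markers in the snoRNA values was not tested.

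The host promoters were examined because cytosine methylation, the target of the drug, lies in CG pairs, and because hosts of snoRNAs often start their transcripts with an oligopyrimidine tract (TOP), the signal by which growth pathways control translation. The RefSeq table of GRCh38.p14 placed 130 of the 138 snoRNAs inside the span of exactly 1 other gene, 87 hosts in all. The table gives no strand, so that an antisense host could not be told from a sense one. Of these hosts, 60 had a promoter with a single start in RefSeq's promoter table. Windows of 300 bases (250 before and 50 from the start) held a median of 27 CG pairs in the hosts, with a range of 5 to 55, against a median of 12 in all 22114 promoters with a single start. At least 1 CG pair was present in 60 of the 60 host windows and in 95.5% of all windows. A TOP-like start, here a C at the annotated first base followed by 4 pyrimidines, was found in 24 of 60 hosts (40.0%), against 3.98% of all promoters. It was present in 14 of 17 hosts that encode ribosomal proteins or translation factors, in 6 of 31 other hosts and in 4 of 12 noncoding hosts. A match is a description of these letters only, on the gene's own strand.

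Promoters of 4 hosts whose snoRNAs are described below are shown to let CG content and the start be read directly. Each run has 258 bases, 250 before the annotated start and the first 8 from it, 5′ to 3′ on the gene's strand from RefSeq (GRCh38.p14), with CG pairs in capitals. IPO7 (chr11:9384402-9384659, plus strand) hosts SNORA23, NCL (chr2:231464477-231464734, minus strand) hosts SNORA75, SNORD20 and SNORD82, TOMM20 (chr1:235128830-235129087, minus strand) hosts SNORA14B, and RPL13A (chr19:49487358-49487615, plus strand) hosts SNORD32A, SNORD33, SNORD34 and SNORD35A.
IPO7: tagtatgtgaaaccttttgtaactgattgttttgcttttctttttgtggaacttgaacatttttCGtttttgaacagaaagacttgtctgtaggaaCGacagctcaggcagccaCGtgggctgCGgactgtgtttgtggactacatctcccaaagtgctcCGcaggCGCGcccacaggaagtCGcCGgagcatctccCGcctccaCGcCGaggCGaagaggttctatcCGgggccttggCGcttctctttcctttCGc
NCL: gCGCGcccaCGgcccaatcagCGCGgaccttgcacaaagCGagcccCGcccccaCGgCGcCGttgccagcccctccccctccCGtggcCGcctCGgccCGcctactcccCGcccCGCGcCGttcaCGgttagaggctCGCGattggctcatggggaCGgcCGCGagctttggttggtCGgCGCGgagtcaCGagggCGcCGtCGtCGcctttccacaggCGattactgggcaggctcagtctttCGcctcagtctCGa
TOMM20: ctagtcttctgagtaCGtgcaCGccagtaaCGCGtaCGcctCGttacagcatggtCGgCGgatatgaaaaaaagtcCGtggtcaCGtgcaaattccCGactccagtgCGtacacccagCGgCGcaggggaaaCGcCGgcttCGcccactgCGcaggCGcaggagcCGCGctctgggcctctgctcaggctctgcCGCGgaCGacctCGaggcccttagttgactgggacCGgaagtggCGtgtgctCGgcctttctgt
RPL13A: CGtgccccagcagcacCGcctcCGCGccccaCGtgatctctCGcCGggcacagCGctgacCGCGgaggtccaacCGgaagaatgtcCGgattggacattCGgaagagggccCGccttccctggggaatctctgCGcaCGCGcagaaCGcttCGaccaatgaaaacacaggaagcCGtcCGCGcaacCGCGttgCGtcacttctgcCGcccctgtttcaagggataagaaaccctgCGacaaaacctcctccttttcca
These runs hold 16, 35, 28 and 27 CG pairs for IPO7, NCL, TOMM20 and RPL13A. The last 8 letters of each run follow the start, and the starts of IPO7, TOMM20 and RPL13A are TOP-like by the rule above, and that of NCL is not. DNA methylation was not measured in these samples.

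Values below are log2 levels per probe set and log2 differences, 5aza minus vehicle, with their standard errors (SE) from limma. A gene is called a rise or a fall where limma's p is under 0.05 after Benjamini-Hochberg adjustment, which covered all 17958 genes. Probe sets respond differently to the same amount of RNA, so a level is compared between arrays and not between genes. Members named for the largest called differences of their class were picked only where both 5aza arrays lay on 1 side of both vehicle arrays. Lack of overlap between the groups is thus no result for them. The precision is limited by 2 arrays a group, and the smallest p that exact permutation of these samples allows for 1 gene is 0.333.

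Most snoRNAs differed little between 5aza and vehicle cells, and the calls were nearly all falls. Of the 138 members, limma called 22 falls and 2 rises, and the unadjusted p was under 0.05 for 7 higher and 37 lower members. Of all 17958 genes, 2984 were higher and 4130 lower at that unadjusted p. Over all genes 15.6% were called falls and 12.4% rises. The share of falls among the members (15.9%) was thus near that of all genes, and the share of rises was 1.45%. The absolute log2 difference was under 0.5 for 106 members (76.8%), against 75.4% of all genes. Both 5aza arrays lay below both vehicle arrays for 58 members (42.0%, against 39.5% of all genes) and above both for 11 (7.97%, against 26.3% of all genes). With an added 2-fold minimum 3 members fell and 1 rose, against 2.62% and 5.05% of all genes.

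Box C/D and box H/ACA snoRNAs had the same count of falls and close medians, and brighter members of both classes lay on both sides of 0. Of the 71 box C/D members, limma called 11 falls (15.5%) and 0 rises, against 15.6% and 12.4% of all genes. The unadjusted p was under 0.05 for 3 higher and 19 lower box C/D members. Of the 67 box H/ACA members, 11 fell (16.4%) and 2 rose (2.99%). The median log2 difference was -0.12 in both classes, and the class medians differed by 0.006. The quartiles ran from -0.36 to 0.05 in box C/D and from -0.43 to 0.10 in box H/ACA members. Both medians lay close to that of all genes (-0.07). Both 5aza arrays were below both vehicle arrays for 29 members of each class (40.8% of box C/D and 43.3% of box H/ACA, against 39.5% of all genes). Among members above the all-gene median level of 7.09, the median difference was 0.07 in 29 box H/ACA members (17 above 0, 12 below) and -0.04 in 37 box C/D members (15 above 0, 22 below). Without the dimmest genes the box H/ACA median was 0.009 and the box C/D median -0.12. No test was made of the difference between the classes, since the members share the same 4 arrays.

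**Figure D1:**
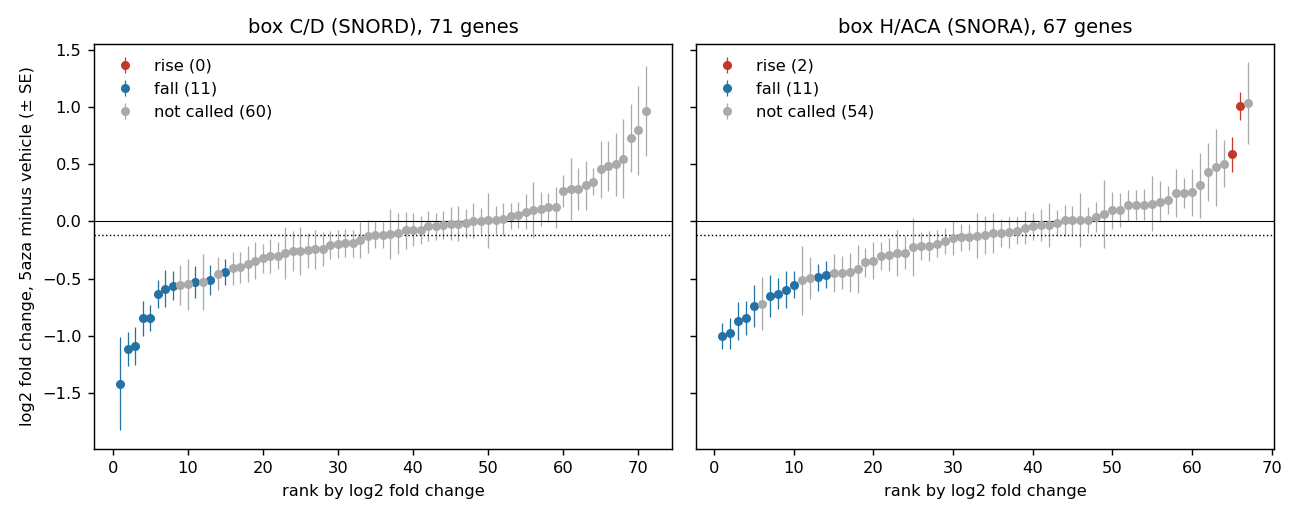
Log2 difference, 5aza minus vehicle, of each of 71 box C/D (left) and 67 box H/ACA (right) snoRNAs, ranked within its class. Points are limma estimates with SE as bars, coloured by the call at adjusted p under 0.05, and the dotted line is the class median (-0.12 in both); 11 members fell in each class, and the members with the highest values mostly carry wide bars and were not called.

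The largest fall among box C/D snoRNAs was that of SNORD1A, a guide for methylation of large-subunit rRNA within the noncoding host SNHG16. Its level was 3.92 and 2.47 on the 5aza arrays, against 4.57 and 4.67 on the vehicle arrays. The 5aza arrays did not overlap the vehicle arrays but lay 1.45 apart, and the difference of -1.42 (2.67-fold lower) had an SE of 0.41 (limma adjusted p = 0.0411). The call was lost without either vehicle array and after repeated quantile normalization.

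SNORD59B, a guide for small-subunit rRNA, had 5.27 and 5.61 in 5aza cells, against 6.62 and 6.50 in vehicle cells. The difference was -1.12 (SE 0.15, limma adjusted p = 0.00227), 2.17-fold lower. Its relative SNORD59A, in the same host gene ATP5F1B (the beta subunit of mitochondrial ATP synthase), fell by 0.51 (SE 0.13, limma adjusted p = 0.0258). The levels of SNORD59A were 4.47 and 4.24 in 5aza cells, against 4.89 and 4.84 in vehicle cells. Groups did not overlap for either snoRNA, which the naming rule required of SNORD59B. The host itself was not called (log2 difference -0.10, SE 0.12).

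SNORD117, in the span of the RNA helicase gene DDX39B, had 5.04 and 5.41 in 5aza cells, against 6.18 and 6.45 in vehicle cells (difference -1.09, SE 0.17, limma adjusted p = 0.00399). SNORD45B, a small-subunit guide in RABGGTB, had 5.40 and 5.07 in 5aza cells, against 6.17 and 5.99 in vehicle cells (difference -0.85, SE 0.15). SNORD38B, a large-subunit guide, had 5.26 and 5.20 in 5aza cells, against 6.03 and 6.12 in vehicle cells (difference -0.84, SE 0.12). All 3 were lower on both 5aza arrays, and each stayed called when any 1 array was left out. SNORD96A, a guide for the small rRNA that pairs with the large-subunit rRNA, had 7.36 and 7.17 in 5aza cells, against 7.92 and 7.89 in vehicle cells. It was 1.55-fold lower (SE 0.12 on the log2 scale, limma adjusted p = 0.0101), a call lost without either vehicle array. The other box C/D falls besides SNORD59A were of SNORD52, SNORD53, SNORD94 and SNORD20, with differences between -0.59 and -0.44, and their groups did not overlap.

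Among box H/ACA snoRNAs the clearest fall was that of SNORA23, a guide for pseudouridines of large-subunit rRNA in IPO7, the gene of a nuclear import receptor whose promoter is shown above. SNORA23 had 10.55 on both 5aza arrays, against 11.54 and 11.56 on the vehicle arrays. The arrays of each group were within 0.03 of each other. The difference of -0.998 (1.998-fold lower, just under the 2-fold minimum) had an SE of 0.11 (limma adjusted p = 0.00113). The host mRNA was not called (difference -0.20, SE 0.12, limma adjusted p = 0.245). The SNORA23 call held in each of the 4 fits that left out 1 array, with differences between -1.01 and -0.99.

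SNORA80E, earlier named SNORA42, lies in KHDC4. Its 5aza values were identical to the last digit given (5.42, SD 0), so they added no spread to the SE. The reason for this tie was not tested. SNORA80E had 6.55 and 6.25 on the vehicle arrays. It was 1.97-fold lower (SE 0.14, log2; limma adjusted p = 0.00287) and stayed called when any 1 array was left out. SNORA27, in the ribosomal protein gene RPL21, had 4.62 and 4.80 in 5aza cells, against 5.36 and 5.79 in vehicle cells (1.83-fold lower). SNORA69, in RPL39 on the X chromosome, had 3.33 and 3.36 in 5aza cells, against 4.36 and 4.0 in vehicle cells (1.79-fold lower). For these 3 snoRNAs every 5aza value was under every vehicle value, as the rule for naming them required.

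SNORA75, in the nucleolin gene NCL, had 6.61 and 6.19 in 5aza cells, against 6.97 and 7.32 in vehicle cells (difference -0.74, SE 0.19). SNORA19, in the translation initiation factor gene EIF3A, had 3.48 and 3.22 in 5aza cells, against 4.24 and 3.77 in vehicle cells (difference -0.65, SE 0.18). SNORA27 was not called without vehicle replicate 2, SNORA69 without vehicle replicate 1, SNORA75 without 5aza replicate 2 or vehicle replicate 2, and SNORA19 without 5aza replicate 2 or vehicle replicate 1. The other box H/ACA falls were of SNORA46, SNORA13, SNORA51, SNORA60 and SNORA74A, with differences between -0.63 and -0.47, again without overlap between the groups.

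Only 2 members were called as rises. SNORA14B, a guide for a pseudouridine of small-subunit rRNA, had 7.77 and 7.63 in 5aza cells, against 6.75 and 6.64 in vehicle cells. It was 2.01-fold higher (difference 1.01, SE 0.12, limma adjusted p = 0.00156), and its difference ran from 0.93 to 1.08 with 1 array left out, called each time. Its host TOMM20, which encodes the import receptor of the mitochondrial outer membrane, fell in the same cells. TOMM20 had 10.49 and 10.52 in 5aza cells, against 11.13 and 10.87 in vehicle cells (difference -0.49, SE 0.13, limma adjusted p = 0.0320). Both 5aza arrays thus lay above both vehicle arrays for the snoRNA and below both for the mRNA of this gene.

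SNORA14A, the relative of SNORA14B in another host (POR, the cytochrome P450 reductase gene), had 5.49 and 6.73 in 5aza cells, against 4.98 and 5.18 in vehicle cells. The difference of 1.03 was as large as that of SNORA14B, but the 5aza arrays lay 1.23 apart and the test was not passed (SE 0.36, limma adjusted p = 0.0726). Probe sequences were not used, so cross-hybridization between these related copies was not assessed. SNORA71A, a small-subunit guide in the noncoding host SNHG17, had 9.35 and 9.71 in 5aza cells, against 8.99 and 8.90 in vehicle cells. It rose 1.5-fold (difference 0.58, SE 0.15, limma adjusted p = 0.0276), but it was called in 1 of the 4 fits that left out an array (without 5aza replicate 1). Its relatives in the same host, SNORA71C and SNORA71D, had differences of 0.14 and 0.25 and were not called.

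**Figure D2:**
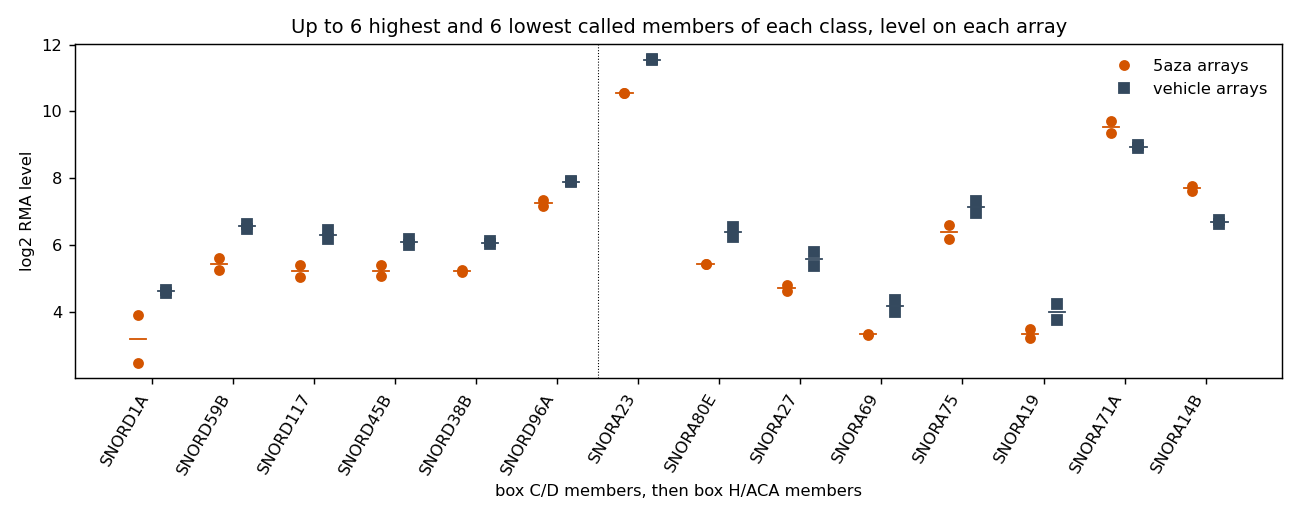
Log2 RMA level of 14 called snoRNAs (in each class up to 6 with the highest and 6 with the lowest difference) on each of 2 5aza arrays (circles, left of each pair) and 2 vehicle arrays (squares, right), with group means as short lines. The 6 box C/D members and 6 of the 8 box H/ACA members are lower on both 5aza arrays, and SNORA71A and SNORA14B are higher. All 14 were picked among called members whose groups do not overlap.

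The falls came mostly from probe sets with low signal. Of the 72 members whose mean level was not above the all-gene median of 7.09, 19 fell (26.4%) and 0 rose, whereas of the 66 members above it 3 fell (4.55%) and 2 rose. Over all genes the order was the other way, with 10.4% falls below and 20.7% above that median. SNORA23, SNORD96A and SNORD52 were the falls above it. The median log2 difference was -0.21 in the members not above it and -0.02 in those above. Detection calls were not used here, and it is not known which low members lie above background.

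The 5aza arrays disagreed with each other on many snoRNAs. The 2 arrays differed by over 0.5 on the log2 scale for 27 members (19.6%), against 6.21% of all genes, and for 23 of the 27 the second array was the higher. The vehicle arrays differed by that much for 5 members (3.62%), against 2.08% of all genes. Of the 23 members higher on the second 5aza array, 20 had a positive 5aza minus vehicle difference, 17 had a level above the all-gene median and 0 were called. A high second 5aza array raises the 5aza mean and widens the SE. The counts of positive differences and of calls thus follow in part from how these members were picked. Differences between arrays of the 2 groups went together, more so at higher levels. Pearson's r between the 5aza difference and the vehicle difference, array 2 minus array 1, was 0.40 over the 138 members and 0.27 over all genes, as a description over genes that share the same arrays. Above the all-gene median level it was 0.66 over 66 members and 0.57 over 8979 genes, against 0.21 over the 72 other members. Among those 66 members it was 0.83 over the 37 of box C/D type and 0.46 over the 29 of box H/ACA type.

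Each fit without 1 array leaves a single array in 1 group, which is assumed to vary like the 2 arrays of the other group. Without a 5aza array the spread thus comes from the vehicle arrays, which differed by over 0.5 for 5 members, against 27 for the 5aza arrays. Without 5aza replicate 1, 22 members rose and 31 fell, against 14.1% rises and 18.9% falls of all genes in that fit. Without 5aza replicate 2, 2 rose and 19 fell, against 12.4% and 14.6% of all genes. The count of rises therefore rested on which 5aza array was kept, 11 box C/D and 11 box H/ACA rises with the second array alone, against 1 of each with the first alone. Leaving out vehicle replicate 1 gave 1 rise and 9 falls, and leaving out vehicle replicate 2 gave 1 rise and 10 falls. Falls were then 6.66% and 6.89% of all genes, and rises 7.06% and 7.43%. In all, 7 of the 24 calls held in each of these 4 fits: the falls of SNORD59B, SNORD117, SNORD45B, SNORD38B, SNORA23 and SNORA80E and the rise of SNORA14B.

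SNORD13 (U13), which guides acetylation of small-subunit rRNA by NAT10 and is transcribed from its own promoter, was among the members with the widest split. It had 11.45 and 12.79 on the 5aza arrays, against 11.17 and 11.48 on the vehicle arrays. The difference of 0.80 did not pass the test (SE 0.39, limma adjusted p = 0.176), and it was 0.13 without 5aza replicate 2 and 1.46 without 5aza replicate 1. NAT10 had a difference of -0.37 and was not called (limma adjusted p = 0.0517). The U3 probe sets name several SNORD3 genes together and were not used. SNORD57, a small-subunit guide with 1 of the 3 highest box C/D signals, had 11.16 and 11.90 in 5aza cells, against 10.89 and 11.26 in vehicle cells (difference 0.46, SE 0.25, limma adjusted p = 0.224). SNORA3A, among the 3 highest box H/ACA signals, had 11.35 and 12.00 in 5aza cells, against 11.30 and 11.75 in vehicle cells (difference 0.15, not called). The groups overlapped for SNORA3A, SNORD57 and SNORD13 alike.

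SNORD33, named with the rest of its cluster after its values were seen, is 1 of the RPL13A snoRNAs known for their part in lipotoxic and oxidative stress. It had 10.26 and 11.58 in 5aza cells, against 9.74 and 10.18 in vehicle cells (difference 0.96, SE 0.39, limma adjusted p = 0.116). SNORD32A had 9.47 and 10.40 in 5aza cells, against 9.37 and 9.51 in vehicle cells. SNORD35A had 9.40 and 9.89 in 5aza cells, against 9.25 and 9.47 in vehicle cells, and SNORD34 had 7.94 and 8.71 in 5aza cells, against 8.11 and 8.35 in vehicle cells. All 4 differences were above 0 (0.10 to 0.96) and none was called, while in each case the second 5aza array was higher than all the others.

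**Figure D3:**
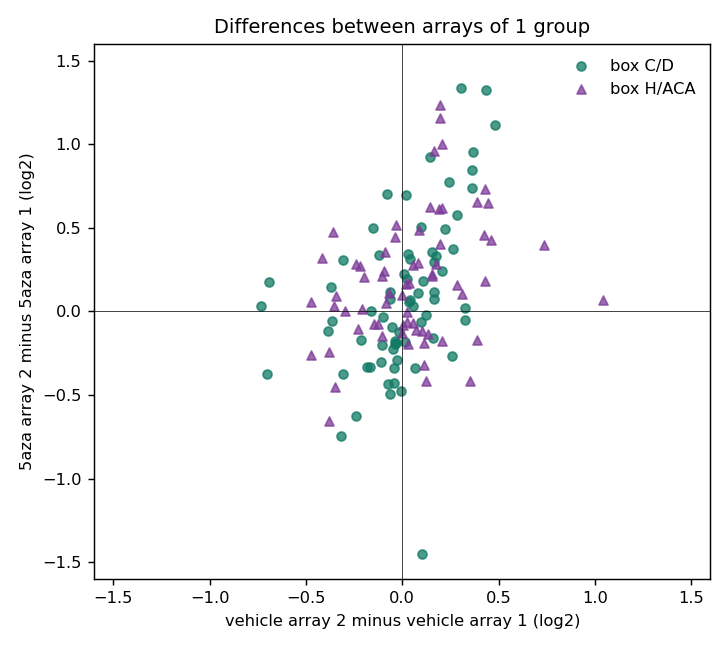
Difference between the 2 5aza arrays (vertical, array 2 minus array 1) against the difference between the 2 vehicle arrays (horizontal), on the log2 scale, for 71 box C/D (circles) and 67 box H/ACA (triangles) snoRNAs. The 5aza arrays are apart by over 0.5 for 27 members, 23 of them upward, and the vehicle arrays for 5.

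The RNAs RPPH1, TERC and RMRP, no snoRNAs by symbol, were also higher on the second 5aza array. RPPH1, the RNA of ribonuclease P, had 8.58 and 9.37 in 5aza cells, against 7.97 and 8.06 in vehicle cells, and rose (difference 0.96, SE 0.24, limma adjusted p = 0.0267). TERC, the telomerase RNA, which carries an H/ACA domain, had 9.40 and 10.09 in 5aza cells, against 9.16 and 9.29 in vehicle cells (not called). RMRP, the RNA of ribonuclease MRP, had 11.65 and 12.50 in 5aza cells, against 11.62 and 11.73 in vehicle cells (not called). These 3 were chosen outside the rule for named genes. Of 185 microRNA genes 11 had 5aza arrays apart by over 0.5 (5.95%, against 6.21% of all genes), 6 with the second array higher and 5 with the first. Of 16 SCARNA genes 3 were apart by that much, SCARNA6 and SCARNA16 higher on the second array and SCARNA9 on the first.

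Of the 16 guides of Cajal bodies (symbols starting with SCARNA), which modify spliceosomal RNAs, 2 rose (12.5%, against 12.4% of all genes) and 4 fell (25%, against 15.6%). SCARNA7 and SCARNA9L rose by 0.53 and 0.57, and SCARNA1, SCARNA4, SCARNA8 and SCARNA11 had differences between -0.68 and -0.48. Of the 50 snoRNAs of imprinted clusters, which the rule leaves out, 8 rose (16.0%, against 12.4% of all genes) and 0 fell, and the unadjusted p was under 0.05 for 8 higher and 1 lower in limma. Whether this differs from the members was not tested.

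Host genes differed little between the groups, and no common direction with their snoRNAs was seen. For 85 members the single host had a probe set of its own, 62 hosts in all, of which 4 rose (6.45%, against 12.4% of all genes) and 3 fell (4.84%, against 15.6%). Member and host differences had the same sign in 43 of 85 pairs, and Pearson's r over the pairs was -0.001 (Spearman's rho -0.02), as a description in which pairs share arrays and sometimes hosts. The absolute log2 difference was under 0.5 for 58 of the 62 hosts. Host quartiles ran from -0.15 to 0.11, beside a median SE of 0.12. With host differences this close to their SE, these values cannot show whether hosts and snoRNAs move together. Of the 14 called members with a measured host, 12 had a host that was not called. The other 2 were SNORA14B with TOMM20 and SNORD52 with SNHG32. SNORD52 and SNHG32, a noncoding gene, both fell (differences -0.59 and -0.81).

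For the other 5 called hosts the snoRNAs were not called. EEF1B2, a translation elongation factor gene, rose by 0.41 (SE 0.11), while its snoRNAs SNORA41 and SNORD51 had differences of -0.34 and -0.30. ZFAS1, a noncoding host, fell by 0.56, and its SNORD12C had a difference of -0.02. AAK1, a kinase gene, rose by 0.87, and the snoRNA copy SNORA36C within it had a difference of -0.12. PHETA2 rose by 1.05 and RAP1B by 0.43, and the copies SNORD13P1 and SNORA70G within them had differences of 0.05 and -0.29. With TOMM20 and SNHG32 these are all 7 called hosts, named after their values were seen. RNA stability was not measured.

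**Figure D4:**
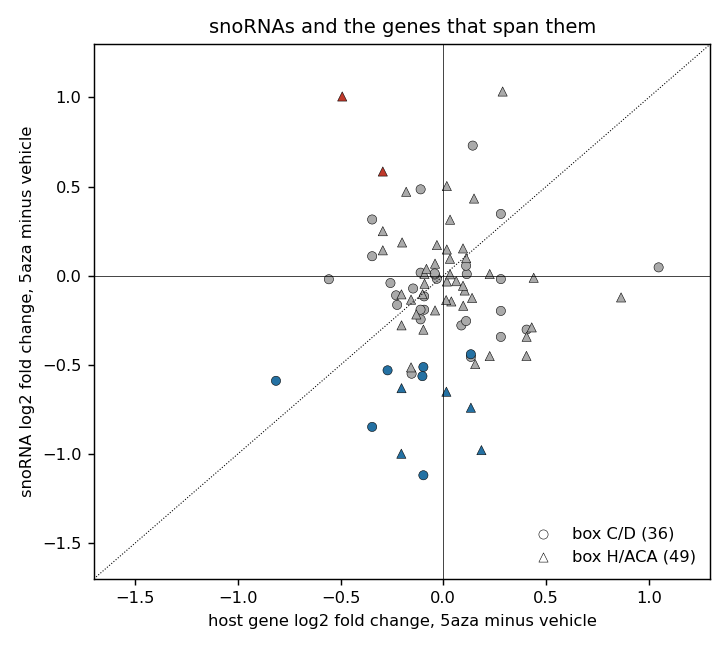
Log2 difference, 5aza minus vehicle, of 85 snoRNAs (vertical; 36 box C/D as circles, 49 box H/ACA as triangles; red for rises, blue for falls, grey for not called) against that of the single gene spanning them (horizontal). The dotted line marks equal values; points spread along the vertical axis while most hosts stay near 0, and SNORA14B is the red triangle highest on the left.

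Estimates for snoRNAs of the same host were often apart, beside a median SE of 0.15 over all members. Among 27 hosts with 2 or more members (70 members), all members lay below 0 in 12, all above 0 in 3 and on both sides in 12. Most differences lay below 0 in any case, 90 of all 138 members and 10659 of all 17958 genes. The spread of differences within a host had a median of 0.43 and reached 1.54 in SNHG16, where SNORD1A fell and SNORD1B and SNORD1C had differences of 0.12 and -0.03. In RABGGTB, SNORD45B fell by 0.85, whereas SNORD45A had 10.82 and 11.16 in 5aza cells, against 10.86 and 10.89 in vehicle cells. SNORD45C had 8.36 and 7.73 in 5aza cells, against 7.85 and 7.61 in vehicle cells. The differences between snoRNAs of 1 host were not tested.

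The 6 measured snoRNAs of GAS5, a noncoding growth-arrest gene with a TOP-containing transcript, all lay below 0, between -0.56 and -0.04, and none was called. The lowest was SNORD79, with 8.32 and 7.83 in 5aza cells, against 8.66 and 8.60 in vehicle cells (limma adjusted p = 0.0546), and the highest was SNORD74, with 11.24 and 11.35 in 5aza cells, against 11.29 and 11.37 in vehicle cells. The 3 snoRNAs of NCL all lay below 0 too. SNORA75 and SNORD20 fell, and SNORD82 had 4.09 and 4.04 in 5aza cells, against 4.35 and 4.68 in vehicle cells (limma adjusted p = 0.0554). The host mRNA of nucleolin, a protein of the rRNA transcription centre, had 11.85 and 11.70 in 5aza cells, against 11.73 and 11.56 in vehicle cells, with a difference of 0.13 (limma adjusted p = 0.487). RPL23A, a ribosomal protein gene, had a difference of 0.28 and its 4 snoRNAs lay between -0.34 and 0.35, none of these called.

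**Figure D5:**
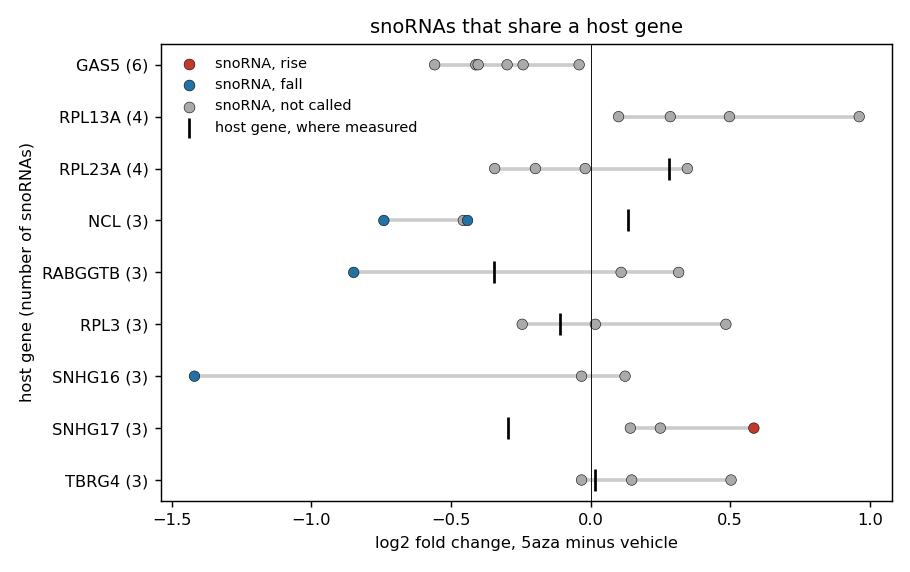
Log2 difference, 5aza minus vehicle, of the snoRNAs in 9 hosts with 3 or more of them (points, coloured by call; grey bars span lowest to highest) and of the host gene where a probe set names it alone (black tick). The GAS5 and NCL points lie below 0 and those of RPL13A and SNHG17 above it, and single falls stand apart from their neighbours in RABGGTB and SNHG16.

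By kind of host, 5 of 45 members in ribosomal protein or translation factor genes fell (11.1%) and 3 of 24 in noncoding hosts (12.5%). In other genes 12 of 61 fell (19.7%), against 15.6% of all genes. Rises numbered 0, 1 (4.17%) and 1 (1.64%) in these kinds, against 12.4% of all genes. Of the 8 members inside 0 or several genes, 2 fell and 0 rose. Box C/D falls in these 3 kinds were 2 of 26 (7.69%), 2 of 19 (10.5%) and 7 of 23 (30.4%). Box H/ACA falls were 3 of 19 (15.8%), 1 of 5 and 5 of 38 (13.2%). Differences between kinds of host were not tested. The 6 copies of SNORA70 in 6 different hosts all lay below 0, between -0.50 and -0.03, with 0 called and mean levels of 4.27 or less. Copies of this family are related in sequence and may share signal, which was not assessed.

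The core proteins of snoRNA particles gave 0 calls in limma's test, against 12.4% rises and 15.6% falls of all genes. Of the 7 measured, 1 was higher (NOP10) and 0 lower at an unadjusted p under 0.05. Of the box C/D core, fibrillarin (FBL, the methyltransferase) had 12.04 and 11.91 in 5aza cells, against 12.22 and 12.20 in vehicle cells (difference -0.23, SE 0.12, limma adjusted p = 0.188). NOP58 had a difference of -0.21 and SNU13 of 0.12, and NOP56 has no probe set naming it alone. Of the box H/ACA core, dyskerin (DKC1, the pseudouridine synthase) had a difference of -0.16 (SE 0.13, limma adjusted p = 0.420), NHP2 of -0.16, GAR1 of -0.02 and NOP10 of 0.34. NOP10 had the highest difference, with levels of 11.39 and 11.67 in 5aza cells, against 11.16 and 11.23 in vehicle cells (limma adjusted p = 0.116).

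Of 15 assembly and maturation factors 0 were called by limma, against 12.4% rises and 15.6% falls of all genes. At an unadjusted p under 0.05, 0 of these factors were higher and 3 lower, and their median difference was -0.11. The lowest adjusted p among them was that of COIL, the Cajal body scaffold coilin, with 10.86 and 10.65 in 5aza cells, against 11.17 and 11.12 in vehicle cells (limma adjusted p = 0.0590). Of 37 genes of RNA polymerase I and pre-rRNA processing, 1 rose (2.70%, against 12.4% of all genes) and 0 fell (against 15.6%), with a median of -0.10. The rise was of UTP6, a component of the small-subunit processome, with a difference of 0.67 (SE 0.14, limma adjusted p = 0.0127).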

How the data were processed

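Total RNA of 2 5aza and 2 vehicle samples was hybridized to 1 Affymetrix array each. The deposited values are log2 levels per probe set, which the authors computed by RMA in Affymetrix Expression Console per the submitters' processing notes, with no version given there. The array holds 33297 probe sets, of which 19181 have 1 gene symbol in GEO's platform annotation, 2055 several and 12061 none listed. Where several probe sets named a gene, the one highest on average across the 4 arrays was kept, which gave 17958 genes. All of them were fitted with limma 3.58.1 (R 4.3.3), 5aza minus vehicle without a block, and p-values were adjusted by the Benjamini-Hochberg method. Sequence depth does not apply, and the number of arrays sets the precision.

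The members and gene lists were chosen with earlier results of these data known. Named genes are the 6 highest and 6 lowest called members of each class whose groups do not overlap, the 3 with the highest mean of each class, SNORD3A, SNORD118 and SNORD13, host genes, core proteins, and up to 4 genes of each further list by p; further members of a host or family were named after their values were seen. Alternatives were leaving out each array, a replicate block, centring on 20 housekeeping genes, repeated quantile normalization, a filter on dim genes, the mean over probe sets and stricter thresholds. The host cluster of 1 member is not reported here. A set of 50 probe sets naming a snoRNA outside the imprinted clusters with other genes was not used. Same-numbered samples were not shown to be paired, since 2 pairs cannot settle it.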

Additional observations from a re-analysis of the deposited data

How the results depend on the processing

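Of the counts of calls, box C/D falls (11) became 7 with housekeeping centring, 4 at adjusted p under 0.01 and 3 with a 2-fold minimum, and ranged between 4 and 18 with 1 array left out. Box H/ACA falls (11) became 7 with housekeeping centring, 7 without the dimmest genes, 4 at adjusted p under 0.01 and 0 with a 2-fold minimum (limma; 18 lower at an unadjusted p under 0.05), and ranged between 5 and 13 with 1 array left out. Box C/D rises (0) became 1 with housekeeping centring, with repeated quantile normalization and without the dimmest genes, and ranged between 0 and 11 with 1 array left out. Box H/ACA rises (2) became 1 at adjusted p under 0.01 and 1 with a 2-fold minimum, and ranged between 1 and 11. With the replicate number as a block, rises numbered 7 in box C/D and 5 in box H/ACA and falls 16 in each. The 2 rises and 22 falls reported were among them, and the number is not shown to pair the samples. Over all genes 15.6% then rose and 21.3% fell. With housekeeping centring 3 of 138 members rose and 14 fell, against 14.8% and 10.6% of all genes. With repeated quantile normalization 3 rose and 21 fell, against 13.2% and 14.6%. Without the dimmest genes 3 of 97 members rose and 17 fell, against 14.1% and 23.1% of all genes. In this last setting the share of falls among members was below that of all genes. The box C/D median (-0.12) was -0.0113 with housekeeping centring and between -0.131 and -0.105 with 1 array left out. The box H/ACA median (-0.12) was -0.0173 with housekeeping centring, -0.0824 with repeated quantile normalization, 0.00918 without the dimmest genes and between -0.186 and -0.0524 with 1 array left out. Housekeeping centring subtracts 1 constant per array, so it moved the difference of every gene by the same 0.10. The class medians therefore had to stay at -0.04 and -0.05 relative to the all-gene median. The share of calls that were rises over all genes was 58.3% with this centring and 44.4% without. The cause of the other changes was not tested. With 2 arrays a group, no detection calls and low signal for many snoRNAs, small differences were not detectable.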
